A study of Mus musculus with 12 samples.

Results

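The 38 genes described here are the rows of the count tables whose symbols begin with Ndufa, Ndufb, Ndufc, Ndufs or Ndufv, without the assembly factors named Ndufaf, among 44345 gene names in each table. No measured value entered that choice. The samples were dorsal root ganglia, which hold the cell bodies of sensory neurons, of C57BL/6 mice 5 to 8 weeks old kept for 10 days under standard housing (SH) or with environmental enrichment (EE). Whole-ganglion libraries pooled the sciatic ganglia of 2 mice each, and captured-neuron libraries held neurons at least 30 µm across, cut by laser from stained sections of 3 mice each. Both preparations had 3 SH and 3 EE libraries, so the design held 12 libraries in 4 groups. The labels give no genotype beyond the strain, no sex and no handling other than the housing. In the whole-ganglion tables every sample column also carries the term Sham, for which no label gives a meaning. Whether different mice went into each library of a group is not stated, and a p-value therefore reflects only how far these libraries differ, part of which may be technical.

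Complex I is the NADH dehydrogenase of the mitochondrial inner membrane. It passes electrons from NADH to ubiquinone and pumps protons, and so feeds the gradient that drives ATP synthesis. Its matrix arm holds an N module that oxidises NADH and a Q module that reduces ubiquinone, and its membrane arm has a proximal and a distal pump module. The catalytic subunits are encoded partly in the nucleus and partly in mitochondrial DNA, and the remaining subunits, called accessory, surround them. Sensory neurons with long axons and steady firing depend strongly on this respiration.

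By role, the members comprised 7 catalytic core subunits, 7 accessory subunits of the N module, 2 of the Q module, 9 of the proximal membrane arm, 10 of the distal membrane arm, and Ndufab1, the mitochondrial acyl carrier protein that docks on the complex. The other 2 share the name and not the place. Ndufa4 encodes a subunit of cytochrome c oxidase (complex IV), and Ndufa4l2 a paralogue of it that is known as a target of hypoxia-inducible factor.

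Promoters were searched because these genes lie on many chromosomes and are known to share regulators. RefSeq sequences (GRCm38.p6, 250 bases before to 50 bases after the annotated start) were found for 33 of the 38 members. Each motif was searched as an exact word on both strands, and no matches of different motifs overlapped. The YY1 word, the run in capitals in the first 4 windows shown here, lay in 4 of the 33 (12.1%). The share was 0.755% of all 27025 promoters in the table and 1.58% of those of genes tested in captured neurons. The GABPA word CCGGAAG lay in 4 (12.1%), against 9.93% and 17.8%, and the NRF1 word, in capitals in the last window, in 1 (3.03%), against 1.07% and 2.2%. The YY1 matches and the NRF1 match are shown in windows of 30 bases, 5′ to 3′ on the gene's strand, with the match in capitals. The GABPA matches are not shown. All 4 YY1 matches lay just downstream of the start, with their first base between 25 and 36 bases from it (the start counted as 1).
Ndufa9, chr6:126849095-126849124, minus strand: ttgtgggagAAGATGGCGGCcgccgtccgc
Ndufs4, chr13:114388045-114388074, minus strand: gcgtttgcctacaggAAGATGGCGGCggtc
Ndufs6, chr13:73328433-73328462, minus strand: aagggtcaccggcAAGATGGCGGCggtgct
Ndufs7, chr10:80249464-80249493, plus strand: gccgaggccAAGATGGCGGCgctggcgggt
Ndufa11 (NRF1, first base 60 before the start), chr17:56717692-56717721, plus strand: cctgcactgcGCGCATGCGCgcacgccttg
All 4 genes with the YY1 word encode subunits of the matrix arm. Ndufs7 is a core subunit of the Q module and Ndufa9 an accessory subunit there, and Ndufs4 and Ndufs6 are accessory subunits of the N module. A match is a run of letters and was not tested as a binding site. The YY1 word contains the letters ATG, and whether its matches overlap the beginning of the coding sequence was not tested.

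Whole-ganglion libraries held 11343579 to 17036481 reads in genes and captured libraries 19296230 to 29434351. Same-numbered SH and EE libraries of whole ganglia shared a lane. Of the captured libraries, 2 of each housing lay together in lane 3, SH replicate 2 was alone in lane 2 and EE replicate 1 alone in lane 1. Captured SH replicate 2 carried muscle RNA: its muscle markers summed to 2306 CPM (read counts per library size, scaled by TMM), against 51.4 to 126 CPM in the other captured libraries. Markers of large sensory neurons were present in every captured library, with none of 15 at 0. Their sum was 9417 to 11580 CPM in captured SH libraries and 15610 to 16550 in whole-ganglion SH libraries. Most of it came from Nefl, Nefm and Nefh, and single markers went both ways. Mean CPM of Nefm was 1881 in captured and 5811 in whole-ganglion SH libraries, and that of Vamp1 225 and 709. For Ntrk3 the means were 134 and 23.7, and for Scn1a 317 and 147. Markers of small nociceptive neurons were present as well, at 4735 to 5701 summed CPM in captured SH libraries and 4448 to 5030 in whole-ganglion SH libraries. These also went both ways: mean CPM of Calca was 427 in captured and 1483 in whole-ganglion SH libraries, and that of Scn11a 896 and 301. The library kits of the preparations differed, so these sums cannot be read as shares of cells.

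All 38 members were detected in every library. Levels between genes are given in CPM per kilobase, using the length behind the authors' FPKM values. In whole ganglia under SH, Ndufa4 stood far above the rest at 798 ± 50.5 CPM per kilobase (SD, n = 3). Next came the accessory subunits Ndufb9 at 160 ± 6.47 and Ndufa6 at 150 ± 19.3, which did not differ beyond their spread, and then Ndufb6 at 113.5 ± 5.76 and Ndufa2 at 111 ± 1.96, whose spreads also overlapped. Captured neurons had the same gene on top, Ndufa4 at 176.5 ± 17.8 CPM per kilobase, followed by Ndufb9 at 81.5 ± 7.54, the N module subunit Ndufv3 at 72.6 ± 6.67 and Ndufa9 at 70.0 ± 3.46. Ndufb9 and Ndufv3 were within their spread of each other, as were Ndufv3 and Ndufa9, while the SD ranges of Ndufb9 and Ndufa9 did not meet. The lowest members per kilobase were in both preparations Ndufa4l2 (1.66 ± 0.252 in whole ganglia, 0.362 ± 0.0636 in captured neurons), Ndufb2 (4.6 ± 0.493 and 2.76 ± 0.271), Ndufab1 (11.3 ± 0.813 and 4.86 ± 0.336) and Ndufb7 (12.3 ± 0.838 and 5.6 ± 0.599). Over the members the median was 62.9 CPM per kilobase in whole ganglia and 37.3 in captured neurons. Gene length matters for this order: with the longest GENCODE transcript as length, Ndufa4 was at 320.5 CPM per kilobase in whole ganglia, and Ndufb10, at 101, was highest in captured neurons.

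The core subunits were not equally abundant although the enzyme holds them in equal number. In whole ganglia under SH, Ndufv2 (78.0 ± 7.59) and Ndufs8 (75 ± 2.51 CPM per kilobase) lay within their spread of each other. Ndufs1, Ndufv1 and Ndufs3 lay at 49.0 ± 2.31, 45.3 ± 1.73 and 40.7 ± 1.78, and Ndufs7, which carries the last iron-sulfur cluster before ubiquinone, was lower still at 26.7 ± 0.934. In captured neurons Ndufv2 (64.3 ± 5.53), Ndufs1 (55.8 ± 3.52) and Ndufv1 (49.1 ± 4.38) formed the upper part, and Ndufs8 (29.9 ± 4.80), Ndufs3 (20.1 ± 2.19) and Ndufs7 (12.9 ± 1.06) the lower part. This order depends on the length used. By the longest transcript, Ndufs3 was at 85.3 CPM per kilobase in whole ganglia, above Ndufs8 (72.3), Ndufv1 (69.1) and Ndufs1 (67.9), and at 42.2 in captured neurons, above Ndufs8 (28.8). Ndufs7 was below these genes by either length (46.9 in whole ganglia and 22.7 in captured neurons by the longest transcript).

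**Figure D1:**
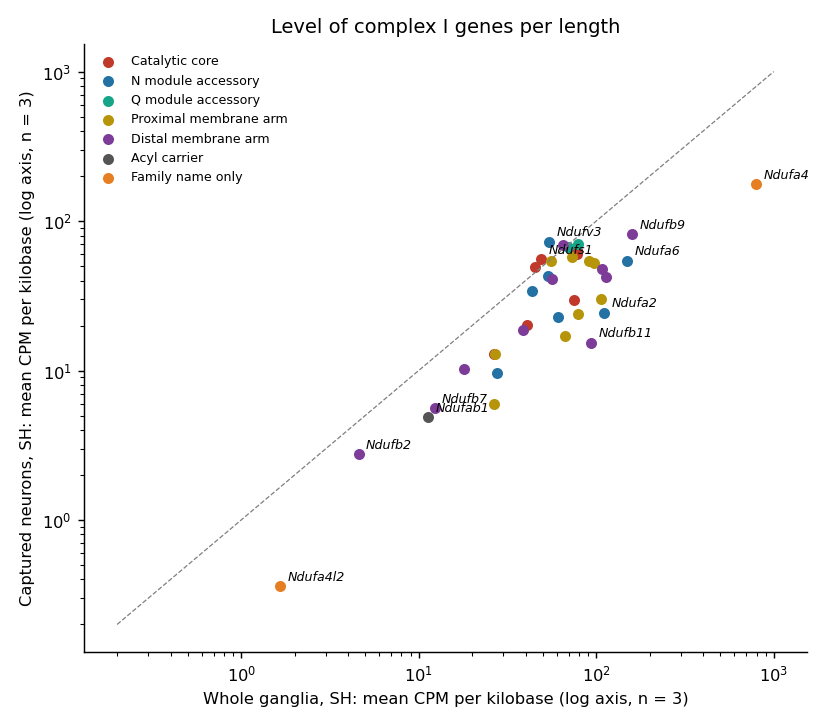
Mean level of each member in SH libraries of whole ganglia (x axis) and captured neurons (y axis), in CPM per kilobase on log axes; points are genes coloured by place in complex I, and the dashed line marks equal levels. Most genes lie below the line, Ndufa4 at 798 in whole ganglia is far to the right, and Ndufv3 and Ndufs1 lie above the line.

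Between preparations, 34 of the 38 members had a lower mean CPM in captured neurons than in whole ganglia under SH, and 4 had a higher one, with a median log2 ratio of −1.03. Ndufv3 was at 127, 107 and 111 CPM in the captured SH libraries and at 78.8, 90.2 and 89.9 in the whole-ganglion ones. Ndufs1 was at 220, 195 and 203 CPM against 189, 181 and 172. For both genes every captured SH library was above every whole-ganglion SH library. At the other end Ndufb11 was at 15.4, 13.7 and 13.0 CPM in captured neurons and 79.5, 87.6 and 90.4 in whole ganglia. The ratio moved with transcript length: the 18 members whose longest transcript is under 1000 bases had a median log2 ratio of −1.42, and the 20 longer ones −0.548. Across the 37 members tested in both preparations, Spearman's rho between the ratio and the longest transcript was 0.473, a description across genes that share libraries, given without a test. Whole ganglia went through a poly(A) kit and captured neurons through a kit that depletes ribosomal RNA, and the tables were normalised separately, so that the effects of kit and of capture cannot be told apart, and the ratio was not tested.

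**Figure D2:**
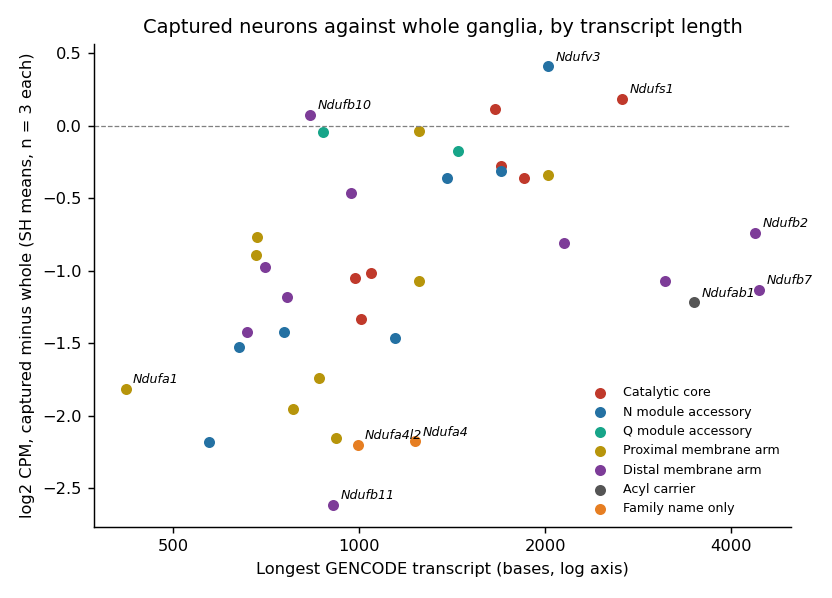
Log2 ratio of mean CPM in captured over whole SH libraries (y axis, n = 3 each) against the longest GENCODE transcript in bases (x axis, log scale); points are the 38 members coloured by place in complex I. Short genes such as Ndufb11 and Ndufa2 (−2.18) lie lowest, and the longer Ndufv3 and Ndufs1 lie above 0.

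In whole ganglia, complex I transcripts stayed near the same level in both housings. The members summed to 3361, 3411 and 3249 CPM in the SH libraries and 3088, 3561 and 3351 in the EE libraries, which overlapped. By edgeR's quasi-likelihood test, 0 of 38 members passed an adjusted p of 0.05, where 1 of 15845 genes did (0.00631%). DESeq2 and limma-voom also called 0 members. At an unadjusted p under 0.05 there was 1 member, Ndufa4l2, which was lower in EE, and no member was higher at that p (1.34% of all genes were). The log2 fold change was above 0 for 14 of 38 members, beside 51.3% of all genes, with a median of −0.016 beside 0.0028 over all genes tested. Without EE replicate 1 it was above 0 for 28 of 38, with a median of 0.043, and without EE replicate 2 for 6 of 38, with a median of −0.080. With the shared lane as a block, 32 genes were called (0.202%), none of them a member. There 2 of 38 members had an unadjusted p under 0.05 by edgeR (Ndufa4l2 and Ndufs5), beside 823 of 15845 genes.

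Ndufa4l2 was the member with the widest relative difference there and also the faintest. It was at 1.53, 1.88 and 1.41 CPM in the SH libraries and at 0.900, 0.690 and 0.897 in the EE libraries. All EE libraries lay below all SH libraries, which held for 1 of 38 members and for 4.29% of all genes. In no member were all EE libraries above all SH libraries, which held for 3.19% of all genes. The values rest on 9 to 26 reads per library. The log2 fold change was −0.95 (SE 0.30), with an unadjusted p of 0.00628 and an adjusted p of 1.0 by edgeR. Ndufs5, an accessory subunit of the proximal membrane arm, was at 78.7, 94.2 and 79.4 CPM in SH and 68.0, 89.0 and 71.3 in EE, lower in EE within each lane, although the groups overlapped. Its log2 fold change was −0.14 (SE 0.10), and its adjusted p with the lane block was 0.893 by edgeR.

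The 7 core subunits had log2 fold changes in whole ganglia between −0.071 (Ndufs7) and 0.052 (Ndufs1), 4 above 0 and 3 below. Ndufs1, which receives the electrons within the N module, was at 189, 181 and 172 CPM in SH and 196, 177 and 190 in EE. Ndufv1, which binds NADH and the flavin, was at 110, 115 and 119 CPM in SH and 101, 133 and 107 in EE. Neither gene separated the housings. Ndufb5 of the distal membrane arm had the highest value of the members, 0.099 (SE 0.082, adjusted p of 1.0 by edgeR), followed by Ndufb6 (0.062), Ndufa4 (0.060) and Ndufb9 (0.052). The N module accessory subunits had a median of −0.083 with 2 of 7 above 0. Their smallest unadjusted p was 0.161, that of Ndufs6 (52.8, 55.7 and 55.9 CPM in SH, 48.6, 54.1 and 49.8 in EE). On the lower side Ndufb8, Ndufa2 and Ndufa12 had log2 fold changes of −0.11, −0.13 and −0.084.

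In captured neurons, every member that passed the filter on low counts was higher in EE by the fitted fold change. The differences were small, and none passed the adjusted threshold. The members summed to 2213, 1865 and 1986 CPM in the SH libraries and 2517, 2338 and 2298 in the EE libraries, so that the lowest EE library was above the highest SH library. The filter on low counts kept 37 members and left out Ndufa4l2, which had 4 to 8 reads per library. By edgeR's quasi-likelihood test 0 of the 37 passed an adjusted p of 0.05, where 3 of 16186 genes did (0.0185%), and limma-voom also called 0. An unadjusted p under 0.05 with EE higher was reached by 24 of 37 members, beside 7.3% of all genes. The log2 fold change was above 0 for 37 of 37, beside 49.9% of all genes, and ran from 0.11 (Ndufv1) to 0.41 (Ndufa3). The median was 0.27, a 1.21-fold difference, beside −0.0006 over all genes. In 20 of the 37, every EE library was above every SH library, beside 10.2% of all genes. In bulk libraries, fewer cells of a type and less RNA per cell cannot be told apart.

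**Figure D3:**
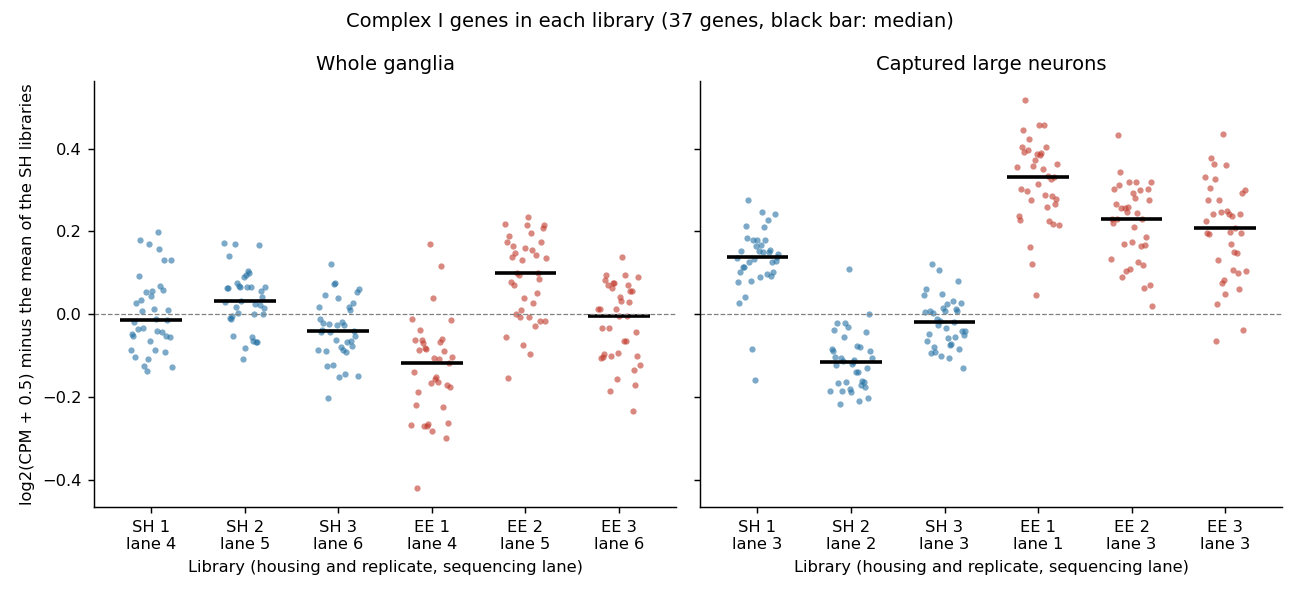
Log2 CPM (0.5 added) of 37 members in each library, minus the mean of the SH libraries of the same preparation (y axis), by library with its lane (x axis); dots are genes and black bars the median over genes. In captured neurons the EE medians of 0.33, 0.23 and 0.21 lie above the SH medians of 0.14, −0.12 and −0.019, and in whole ganglia the libraries of both housings overlap.

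Among the catalytic core, Ndufv2, an iron-sulfur subunit next to the flavin (chr17:66078638-66101559 on GRCm38, minus strand), had the smallest p of all members. It was at 141, 121 and 124 CPM in the SH libraries and at 165, 160 and 158 in the EE libraries, without overlap. Its log2 fold change was 0.33 (SE 0.073), with an adjusted p of 0.121 by edgeR and of 0.00997 by DESeq2. Ndufs1 was at 220, 195 and 203 CPM in SH and 246, 231 and 228 in EE, again without overlap, a log2 fold change of 0.19 (SE 0.068) with an adjusted p of 0.216 by edgeR. Ndufs7 was at 23.9, 20.3 and 22.7 CPM in SH and 28.1, 27.5 and 25.5 in EE, and Ndufs8 at 34, 24.9 and 27.9 in SH and 34.6, 34.8 and 35.2 in EE. Both separated the housings, Ndufs8 narrowly, with log2 fold changes of 0.28 (SE 0.092) and 0.27 (SE 0.11).

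Other core genes had overlapping groups. Ndufs3 was at 48.8, 39.2 and 44.3 CPM in SH and 51.5, 47.8 and 48.7 in EE, a log2 fold change of 0.16 (SE 0.090). Ndufv1 was at 136, 124 and 113 CPM in SH and 151, 130 and 121 in EE, and its log2 fold change of 0.11 (SE 0.095, adjusted p of 0.621 by edgeR) was the lowest of the members. When 1 library was left out, the value of Ndufv1 ran from 0.013 (without EE replicate 1) to 0.18 (without EE replicate 3), with 0.045 without SH replicate 3 and 0.17 without SH replicate 1. That of Ndufs3 ran from 0.084 (without SH replicate 2) to 0.24 (without SH replicate 1). In all, 5 of the 7 core genes had an unadjusted p under 0.05.

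Of the 7 accessory subunits of the N module, 4 had an unadjusted p under 0.05 and the median log2 fold change was 0.22. Ndufa12 was at 48.7, 44.2 and 43.3 CPM in SH and 56.1, 56.1 and 55.0 in EE, with EE libraries closer to each other than to any SH library (log2 fold change 0.30, SE 0.074, adjusted p of 0.129 by edgeR and 0.0415 by DESeq2). Ndufa2 and Ndufa6 had 0.34 (SE 0.11) and 0.33 (SE 0.096). Ndufv3 (0.11, SE 0.083) and Ndufa7 (0.16, SE 0.16) were least apart. Both Q module subunits separated the housings, Ndufa5 at 0.33 (SE 0.10) and Ndufa9, which sits at the joint of the arms, at 0.22 (SE 0.071).

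In the membrane arm, 6 of 9 proximal and 6 of 10 distal accessory subunits had an unadjusted p under 0.05, with medians of 0.23 and 0.28. Ndufa3 had the highest fold change of the members: 16.0, 14.6 and 13.8 CPM in SH and 19.5, 20.1 and 19.3 in EE, a 1.33-fold difference (log2 0.41, SE 0.098, adjusted p of 0.129 by edgeR and 0.0389 by DESeq2). Ndufa10 was at 139, 124 and 132 CPM in SH and 155, 155 and 154 in EE, the tightest EE group of the proximal arm relative to its level (log2 0.23, SE 0.064). Ndufb5 was at 41.9, 34.6 and 36.7 CPM in SH and 51.8, 46.2 and 48.4 in EE (log2 0.37, SE 0.091, adjusted p of 0.129 by edgeR and 0.0213 by DESeq2). In each of these 3 genes the groups did not overlap.

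Outside the complex proper, the complex IV subunit Ndufa4 was at 89.7, 77.6 and 94.7 CPM in SH and 125, 108 and 103 in EE, without overlap (log2 0.36, SE 0.096, adjusted p of 0.142 by edgeR and 0.0226 by DESeq2). The acyl carrier Ndufab1 was at 31.7, 33.1 and 36.2 CPM in SH and 36.6, 36.2 and 40.8 in EE, a log2 fold change of 0.17 (SE 0.086) with groups that overlapped at their edges. Ndufa4l2 stayed between 0.135 and 0.403 CPM in the 6 captured libraries, with a lower mean in EE (0.254) than in SH (0.349) and overlapping groups. DESeq2 called 5 members in all (Ndufv2, Ndufb5, Ndufa4, Ndufa3 and Ndufa12), each higher in EE, where it called 505 genes (3.12%), 214 of them higher (1.32%). Without the filter on low counts, edgeR called 10 members, each higher in EE, where it called 902 genes (2.48%), 410 of them higher (1.13%).

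**Figure D4:**
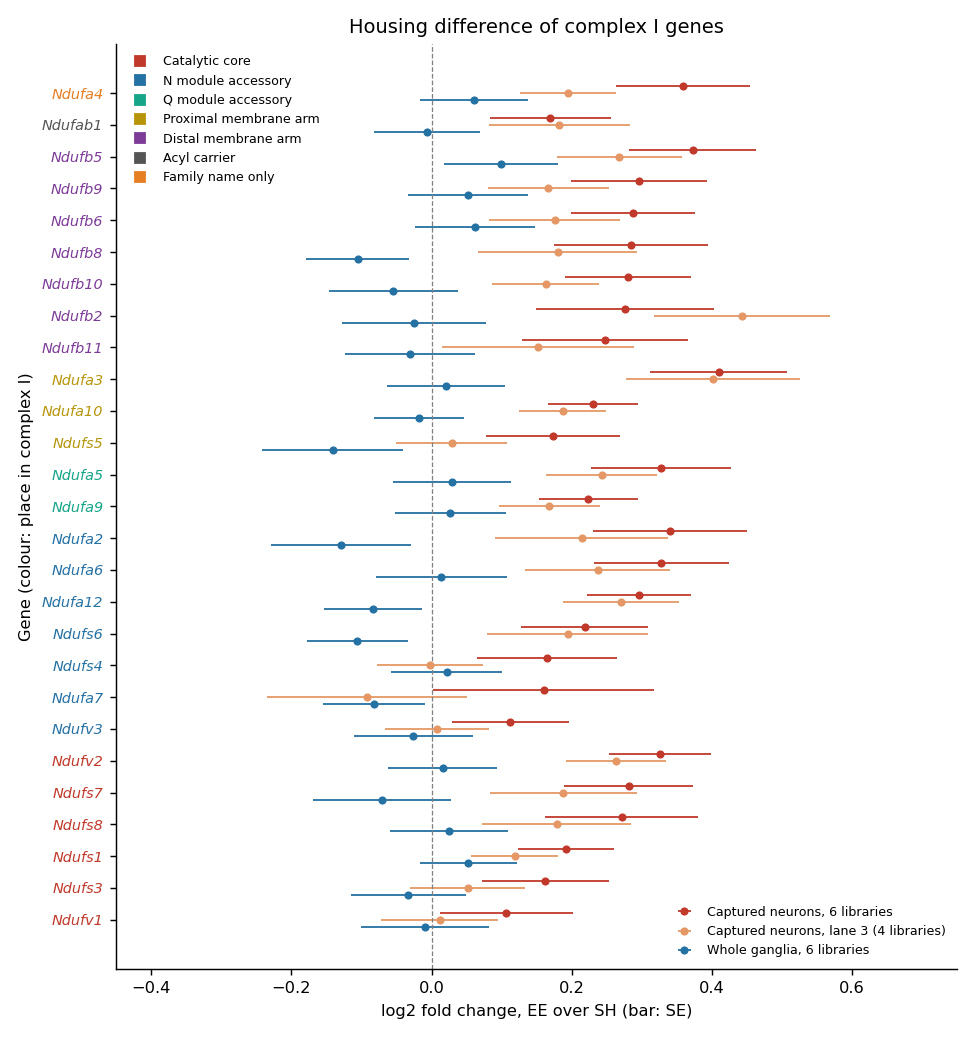
Log2 fold change of EE over SH (x axis, bars are SE) for most members named in the text and tested in captured neurons (y axis, names coloured by place in complex I). Ndufa13, Ndufb4 and Ndufb7 are not shown. Values are from the 6 captured libraries (red), the 4 captured libraries of lane 3 (orange) and the 6 whole-ganglion libraries (blue). The red points all lie above 0 (0.11 to 0.41), most orange points lie between them and 0, and the blue points scatter around 0.

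Within lane 3, with 2 libraries of each housing, the members were again mostly higher in EE, by less. The log2 fold change was above 0 for 35 of 37 (49.2% of all genes), with a median of 0.17 beside −0.0033 over all genes. By edgeR 0 members were called where 658 genes were (4.06%), and 11 members had an unadjusted p under 0.05 with EE higher, beside 7.99% of all genes. Both EE libraries were above both SH libraries for 21 of 37 members, beside 22.4% of all genes. Ndufv2 (141 and 124 CPM in SH, 160 and 158 in EE) had 0.26 (SE 0.071) with the smallest adjusted p, 0.0615 by edgeR. Ndufb2 was at 13.9 and 16.1 CPM in SH and 19.6 and 21.3 in EE, the highest log2 fold change there, 0.44 (SE 0.13, adjusted p of 0.0743 by edgeR). Ndufa7 had −0.092 (SE 0.14) within the lane, the reverse of its value over 6 libraries, and Ndufs4 −0.0020 (SE 0.076). Without EE replicate 1, the only library of lane 1, the median was 0.22 with 37 of 37 above 0 (48.4% of all genes), and 19 had an unadjusted p under 0.05 with EE higher (8.64% of all genes). By edgeR 602 genes were then called (3.64%) and no member. Without SH replicate 2, which held the muscle RNA, the median was 0.20 with 37 of 37 above 0 (50.8% of all genes), 16 members had an unadjusted p under 0.05 with EE higher (4.5% of all genes), and edgeR called 0 genes (0%).

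Markers of cell types also differed between the same captured libraries. Median log2 CPM of 15 large-neuron markers, relative to the SH mean, was −0.010, −0.18 and 0.13 in SH libraries and 0.0090, 0.53 and 0.55 in EE libraries (9417 to 11580 summed CPM in SH, 11860 to 16160 in EE). For 15 nociceptor markers it was −0.070, 0.16 and −0.12 in SH and −0.30, −0.54 and −0.39 in EE (4735 to 5701 and 3695 to 4574 summed CPM). By edgeR 1 nociceptor marker, Mrgprb5, was called lower in EE over 6 libraries, and within lane 3 12 were called lower and 10 large-neuron markers higher. Of the satellite glia markers, 1 was called higher in EE over 6 libraries (Fabp7, log2 0.80, adjusted p of 0.0322 by edgeR) and 4 within lane 3. Over all genes, edgeR called 1 higher and 2 lower of 16186 over 6 libraries, and 305 higher and 353 lower of 16199 within lane 3. Satellite glia markers (9 genes) summed to 2553 to 2842 CPM in SH and 3108 to 3445 in EE. Schwann cell markers summed to 1145 to 1436 CPM in SH and 1024 to 1310 in EE, and macrophage markers to 42.8 to 62.4 and 54.8 to 66.4, with overlap. None of these markers was at 0 in any captured library, and their part in the complex I values was not tested. EE replicate 1, alone in lane 1, had the highest complex I median (0.33). Its large-neuron median (0.0090) was the lowest of the EE libraries. Its nociceptor median (−0.30) was below that of every SH library, and its macrophage median (0.47) was the highest of the captured libraries. In EE replicates 2 and 3 the complex I medians were 0.23 and 0.21, and the large-neuron medians 0.53 and 0.55. How these values relate was not tested.

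**Figure D5:**
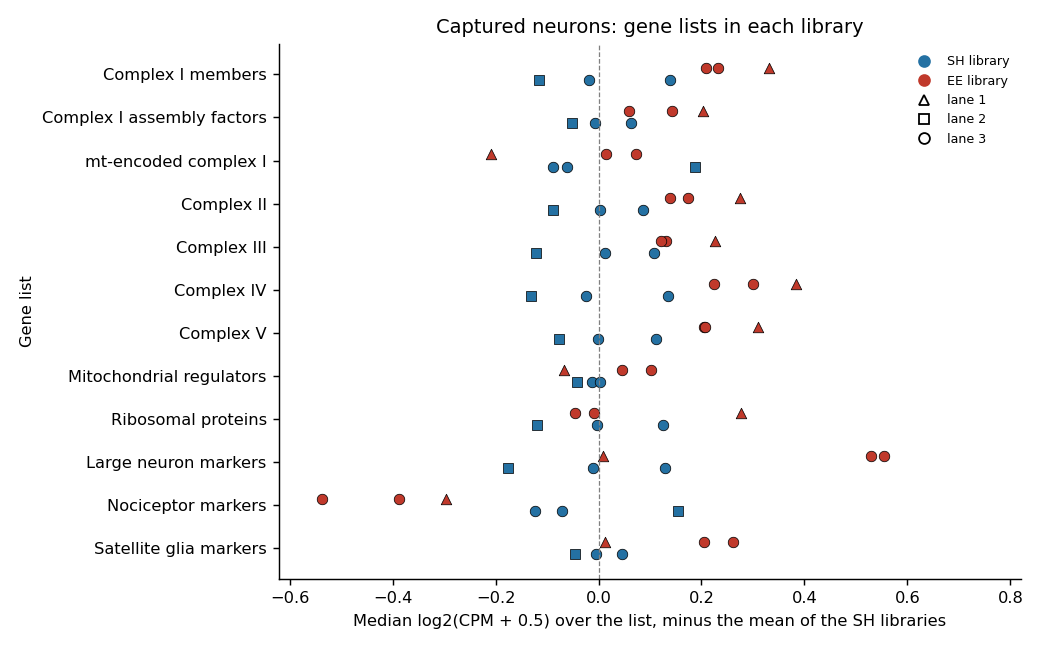
Median log2 CPM (0.5 added) over each gene list, minus the mean of the SH libraries (x axis), for lists in rows (y axis); each point is 1 captured library, coloured by housing, with its shape giving the lane. All EE libraries lie above all SH libraries for complex I, II, III, IV and V, and the mitochondrially encoded subunits of complex I overlap between housings.

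The housing effect was then compared between preparations. All 38 members had a higher log2 fold change in captured neurons than in whole ganglia by the interaction contrast (48.5% of all genes did). The median difference was 0.27 beside −0.0089 over all genes. Ndufa4l2, with a lower mean in EE in both preparations, entered with 4 to 8 reads per captured library. By edgeR 0 of 38 passed an adjusted p of 0.05, and so did 0 of 17412 genes (0%). An unadjusted p under 0.05 was reached by 13 members, all with the captured effect higher, beside 5.29% of all genes. DESeq2 called 119 genes (0.683%) and no member, and limma-voom called 0. The smallest p was that of Ndufa12, with a difference of 0.37 on the log2 scale (SE 0.097, adjusted p of 0.208 by edgeR). Ndufa3 (0.38, SE 0.13), Ndufa2 (0.46, SE 0.16), Ndufs6 (0.31, SE 0.11), Ndufb8 (0.38, SE 0.13) and Ndufa10 (0.24, SE 0.087) followed, with adjusted p between 0.279 and 0.319 by edgeR. With captured libraries of lane 3 alone, 36 of 38 differences were above 0, the median was 0.16, and edgeR called 171 genes (0.988%) and no member.

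Other parts of the respiratory chain gave a frame for these values in captured neurons. Of 15 measured assembly factors, which build complex I without staying in it, 14 had a log2 fold change above 0, 4 with an unadjusted p under 0.05, and the median was 0.15. Ndufaf5, for instance, was at 31.5, 26.5 and 29.3 CPM in SH and 38.3, 39.3 and 35.2 in EE (log2 0.37, SE 0.090, adjusted p of 0.129 by edgeR). The 6 mitochondrially encoded subunits that passed the filter were divided, 3 above and 3 below 0, with a median of −0.010 and 0 at an unadjusted p under 0.05. mt-Nd1 was at 1335, 1591 and 1253 CPM in SH and 1399, 1301 and 1398 in EE. Within lane 3 all 6 were above 0, with a median of 0.16 and 4 at an unadjusted p under 0.05. By edgeR 0 were called in either fit. In whole ganglia all 6 were above 0 as well, with a median of 0.13 and 0 at an unadjusted p under 0.05. With the shared lane as a block, 3 of the 6 had an unadjusted p under 0.05 by edgeR, beside 823 of 15845 genes, and 0 were called. mt-Nd1 was higher in EE within every lane there, at 4394, 3787 and 3305 CPM in SH and 4890, 3979 and 4188 in EE.

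The nuclear genes of complexes II to V were above 0 in all 4, 9, 10 and 16 measured cases, with medians of 0.18, 0.19, 0.34 and 0.24. Over the 6 libraries edgeR called 0 of them. DESeq2 called 0, 1, 4 and 4, each higher in EE, where it called 1.32% of all genes higher. Complex IV had 9 of 10 genes at an unadjusted p under 0.05. Its subunit Cox7b was at 148, 120 and 127 CPM in SH and 189, 172 and 168 in EE (log2 0.42, SE 0.087, adjusted p of 0.0993 by edgeR). In complexes II, III and V the smallest p belonged to Sdhd (0.31, SE 0.11), Uqcrh (0.43, SE 0.097) and Atp5g1 (0.32, SE 0.074), each without overlap between housings. Within lane 3, Cox7b (0.30, adjusted p of 0.0392 by edgeR) and Cox5a (0.34, adjusted p of 0.0464) passed and were higher in EE, and none of the complex II, III and V genes passed.

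Of 10 regulators of mitochondrial genes, 6 were above 0, with a median of 0.0090, and 1 had an unadjusted p under 0.05. That was Esrra, an orphan nuclear receptor, at 10.6, 9.13 and 14 CPM in SH and 14.5, 16.9 and 15.5 in EE (log2 0.48, SE 0.15, adjusted p of 0.19 by edgeR). Its partner Ppargc1a, the coactivator PGC-1 alpha, was at 49.8, 43.9 and 51.9 CPM in SH and 42.3, 60.8 and 64.6 in EE. The groups of Ppargc1a overlapped over 6 libraries (log2 0.20, SE 0.14) and it passed within lane 3 (0.30, adjusted p of 0.0426 by edgeR). Yy1, whose word was searched in the promoters, had −0.16 (SE 0.10, adjusted p of 0.487 by edgeR).

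Cytoplasmic ribosomal protein genes were measured in the same libraries. Of 45, 43 were above 0 over the 6 captured libraries with a median of 0.073. Their library medians relative to SH were 0.28, −0.0090 and −0.046 in EE replicates 1, 2 and 3, and 0.13, −0.12 and −0.0030 in the SH libraries. Within lane 3 the ribosomal median was −0.090, with 8 of 45 above 0, beside 0.17 for complex I. With offsets for transcript length and GC content, the complex I median over 6 libraries was 0.21, with 37 of 37 above 0 and 20 at an unadjusted p under 0.05. With these offsets in lane 3 the median was 0.15, with 31 of 37 above 0. There 8 members had an unadjusted p under 0.05 by edgeR, beside 2642 of 16199 genes in either direction. What part length and GC content had in these values was not tested.

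Reads of some members can be shared with other annotated sequence. Near-identical sequence (at least 95% over at least 300 bases) was found for 7 of the 38. For Ndufa12, Ndufab1, Ndufb11, Ndufb4, Ndufs3 and Ndufs5 it lies in processed pseudogenes. For Ndufa13 it lies in the protein-coding gene Tssk6, which overlaps it on the opposite strand, so this match is the overlap itself and not a copy. Overlap with another gene covered 39% of the exons of Ndufb6 (Smim27, opposite strand), 30.0% of those of Ndufa13 and 19.5% of those of Ndufb9 (Gm49356, same strand), and at most 12.9% (Ndufb11) in the other members. Whether counting used strand is not given in the sources used here, so the values of these genes are less certain.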

How the data were processed

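RNA-seq read counts of 12 libraries were used. The deposited tables hold raw counts per gene name, from the values, and their 5 summary rows were left out. Reads in no annotated feature were 47.0 to 47.6% in whole ganglia and 28.0 to 36.3% in captured neurons. The authors' FPKM values of whole ganglia served as an alternative and gave gene lengths. The second captured table, deposited as FPKM, is a signal: every library's counts multiplied by its own factor to reach a total of 29434351, with no division by length. Per the submitters' processing notes, the tools included edgeR 3.8.6, HTSeq 0.6.0, TopHat2 2.0.12 and Bowtie2 2.2.3, with build mm10; their roles are not given. Per the labels' protocols, whole-ganglion RNA had an integrity number above 7.5 and captured RNA between 6 and 7, and reads were paired, of 100 and 125 bases.

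Each preparation was fitted over its whole table with edgeR 4.0.16 (R 4.3.3; filterByExpr, TMM, two-sided quasi-likelihood test, Benjamini-Hochberg at 0.05). SE is the log2 fold change over the root of F. The interaction used all 12 libraries. Common biological coefficients of variation were 0.0741, 0.121 and 0.101. Alternatives were DESeq2 1.42.0, limma 3.58.1 (voom, and log2 of the second tables with 1 added), other scalings and filters, spline offsets (4 degrees of freedom) for length and GC content, lane 3 alone, a replicate block and leaving out each library. Scripts were tested on simulated counts. Replicate numbers pair whole-ganglion libraries through lanes in the labels (correlations of deviations 0.444, 0.285 and 0.0040). Replicates differed beyond sampling noise (chi-square per degree of freedom 3.76 to 19.1). Positions and transcripts are GENCODE vM21 (GRCm38, the assembly of mm10).

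Members, lists and tests were chosen with earlier results of these data known. Of the members, 1 is not reported by name here. Otherwise, named with values were core subunits, the 6 members per direction with the smallest p in each comparison, called members, the 4 highest and lowest per kilobase, Ndufab1, Ndufa4, Ndufa4l2 and up to 3 genes of each other list. Ndufs5, Ndufb2, Ndufa7, Ndufs4, Ndufb11, mt-Nd1, Ppargc1a and Yy1, and members given to fill out a module, were added after their values were seen.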

Additional observations from a re-analysis of the deposited data

How the results depend on the processing

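In whole ganglia 0 members passed under any alternative run. Genes past the threshold there, 1 in the reported fit, numbered 0 with library size alone or limma on FPKM, 48 without the filter, 32 with the replicate block and 28 with the replicate block and length and GC offsets, and 0 to 2 when 1 library was left out (0 without SH replicate 1, SH replicate 2, EE replicate 1 or EE replicate 2, and 2 without SH replicate 3). The member median ran from −0.080 (without EE replicate 2) to 0.043 (without EE replicate 1) then. In captured neurons 5 members passed with DESeq2, 10 without the filter (Ndufa12, Ndufa13, Ndufa3, Ndufa4, Ndufa5, Ndufa6, Ndufb10, Ndufb5, Ndufb9 and Ndufv2), 1 (Ndufb2) in lane 3 with length and GC offsets, and 0 under the others. Genes past the threshold, 3 in the reported fit, numbered 505 with DESeq2, 902 without the filter, 1 at an average log2 CPM of at least 3, 0 with the replicate block, 658 in lane 3, 755 in lane 3 with length and GC offsets, 168 with limma on the second table, and 106 at an adjusted p of 0.1. Leaving out 1 library gave 0 to 602 (602 without EE replicate 1, 1 without EE replicate 2 or 3, 0 without any 1 SH library). The member median was 0.17 in lane 3 and 0.15 in lane 3 with the offsets, and 0.195 to 0.335 when 1 library was left out. In lane 3, 35 of 37 members were above 0 without the offsets and 31 of 37 with them. Ndufa7 turned to −0.092 and −0.12 in these lane 3 fits. For the difference between preparations 0 members passed throughout. Genes numbered 119 with DESeq2, 457 without the filter, 1 at the higher minimum, 1 with the offsets, 171 in lane 3, 13 at an adjusted p of 0.1 and 0 to 233 when 1 library was left out (233 without captured EE replicate 1, 1 without captured SH replicate 2), with a member median of 0.187 to 0.344. Captured replicate numbers share only a number (correlations 0.21, −0.080 and 0.268). With the replicate block the member median was 0.27 for captured neurons and for the difference, with 0 members called. The median level in whole ganglia was 73.7 CPM per kilobase by the longest transcript. The cause of these shifts was not tested. Depth limits mainly Ndufa4l2, at 9 to 26 reads per whole-ganglion library and 4 to 8 per captured one.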
